A study of Mus musculus with 12 samples.

Results

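The genes described here are 10 markers of the epicardium and of mesothelium, the thin cell sheet on the surface of the heart and of other organs in the chest and abdomen: Wt1, Tbx18, Aldh1a2, Upk1b, Upk3b, Msln, Krt8, Krt18, Krt19 and Lrrn4. They were chosen by symbol, and all 10 were found among the 46983 gene symbols of each deposited table. The samples were mouse hearts with a myocardial infarction at postnatal day 2, separated into a fraction of non-cardiomyocytes (NonCM) and one of cardiomyocytes (CM). Wls fl/fl hearts carried MCM/+ and floxed Wls, and control hearts carried MCM/+ alone, both on a strain labelled BL6/C57. All mice received tamoxifen in 3 doses between postnatal days 1 and 3, and tissue was taken 2 weeks after surgery, although the labels call the cells adult. The 4 groups were NonCM Wls fl/fl, NonCM control, CM Wls fl/fl and CM control, with 3 libraries each.

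The allele MCM, commonly written out as MerCreMer, encodes a Cre recombinase that acts after tamoxifen. The labels do not name the promoter that drives it. Wls carries Wnt proteins to the cell surface, and the design asks what heart cells express when its gene is targeted. Both genotypes carry the MCM allele and the tamoxifen, so the comparison does not show an effect of either. No library came from an uninjured heart.

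The epicardium covers the heart muscle and, in the mouse embryo, sends cells inward that become fibroblasts and vascular support cells. The transcription factors Wt1 and Tbx18 and the retinoic acid enzyme Aldh1a2 mark it in the embryo and return in adult epicardium after injury. Msln, Upk3b, Upk1b and Lrrn4 encode membrane proteins of mesothelial cells, and Krt8, Krt18 and Krt19 encode keratins of simple epithelia and mesothelium.

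RefSeq promoters on build GRCm38.p6 were at hand for 6 of the 10 genes, namely Aldh1a2, Krt18, Krt8, Lrrn4, Tbx18 and Upk3b. Each covers 250 bases before to 50 bases after the annotated start. The 4 shown belong to a gene that rose in Wls fl/fl NonCM (Aldh1a2), to a transcription factor (Tbx18) and to membrane proteins (Upk3b and Lrrn4), and are written on the strand of the gene. The windows are chr9:71215539-71215838 (plus strand) for Aldh1a2, chr9:87731211-87731510 (minus strand) for Tbx18, chr5:136038246-136038545 (plus strand) for Upk3b and chr2:132880813-132881112 (minus strand) for Lrrn4. Capitals mark the letters GGAATG or, on the other strand, CATTCC, the core bound by TEAD factors, the DNA-binding partners of Yap.
Aldh1a2: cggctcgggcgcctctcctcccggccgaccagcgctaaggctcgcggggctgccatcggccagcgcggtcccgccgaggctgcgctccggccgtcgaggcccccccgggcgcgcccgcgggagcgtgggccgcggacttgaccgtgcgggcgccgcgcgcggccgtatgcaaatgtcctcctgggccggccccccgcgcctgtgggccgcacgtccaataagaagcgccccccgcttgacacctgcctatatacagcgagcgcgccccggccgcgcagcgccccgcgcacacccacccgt
Tbx18: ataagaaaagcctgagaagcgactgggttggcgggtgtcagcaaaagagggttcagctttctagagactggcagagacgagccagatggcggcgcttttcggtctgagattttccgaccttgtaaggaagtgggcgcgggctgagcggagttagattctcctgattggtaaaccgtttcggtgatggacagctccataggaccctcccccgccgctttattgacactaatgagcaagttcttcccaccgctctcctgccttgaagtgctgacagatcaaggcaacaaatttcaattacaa
Upk3b: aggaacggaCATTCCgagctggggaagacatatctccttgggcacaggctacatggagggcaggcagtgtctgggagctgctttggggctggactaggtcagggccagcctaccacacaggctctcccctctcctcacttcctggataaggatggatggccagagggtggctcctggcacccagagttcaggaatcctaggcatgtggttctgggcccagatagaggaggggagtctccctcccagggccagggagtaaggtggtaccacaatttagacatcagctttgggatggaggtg
Lrrn4: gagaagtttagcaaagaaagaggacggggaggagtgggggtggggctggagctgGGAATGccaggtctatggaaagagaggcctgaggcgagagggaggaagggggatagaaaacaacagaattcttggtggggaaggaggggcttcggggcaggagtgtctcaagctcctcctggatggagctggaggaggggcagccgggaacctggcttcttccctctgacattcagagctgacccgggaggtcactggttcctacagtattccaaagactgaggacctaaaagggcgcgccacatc

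These letters stood in the Upk3b and Lrrn4 windows and in none of the other 4, and in 14.7% of 32851 promoters of the same length. The letters GTGGGAG, or CTCCCAC on the other strand, a form of the WT1 binding core, stood in none of the 6 and in 9.73% of all promoters. G and C made up 78.0% of the Aldh1a2 window, against a median of 52.7% over all promoters. A match describes letters and is not evidence of binding.

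Library depth ran from 1160146 to 10281214 reads. The shallowest library was NonCM control replicate 1, where 1 read equals a normalized count of 5.54 and the 10 markers had between 2 and 55 reads each. In every group replicate 3 lay close to a weighted mean of replicates 1 and 2, so results are also given without it. Its mean squared residual over genes, with the largest 1% left out here and below, was 0.996 to 1.14 times the counting variance. Replicate 1, set against replicates 2 and 3, was at 1.11 in CM Wls fl/fl and 1.18 in NonCM control. The remaining libraries were at 1.26 to 2.06. Wls had normalized counts of 91.6, 57.3 and 93.9 in CM Wls fl/fl, against 243, 201 and 210 in CM control, a log2 change of -1.45 ± 0.17 (SE; limma adjusted p = 0.00389). In NonCM Wls had 356, 323 and 316 in Wls fl/fl and 427, 374 and 407 in control, a log2 change of -0.28 ± 0.08 that did not pass (limma adjusted p = 0.0831). The series design states 3 hearts per condition but does not tie libraries to hearts, so the p-values cover spread among libraries, some of which may be technical.

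All 10 markers were more abundant in NonCM than in CM. RPM are the reads of a gene per 1000000 reads of its library. In RPM, every NonCM library stood above every CM library for each of the 10, in Wls fl/fl hearts and in control hearts. How many of all genes were separated in this way was not counted. RPM are not adjusted for RNA composition, while the edgeR differences below are. In control hearts the RPM gaps were narrow for Wt1 (lowest NonCM library 9.48, highest CM library 7.98) and for Krt18 (1.72 and 1.45). Whether both stay apart on the edgeR scale was not tested. The 10 summed to 226, 202 and 204 RPM in NonCM Wls fl/fl, 168, 93.0 and 142 in NonCM control, 28.1, 32.4 and 32.1 in CM Wls fl/fl, and 36.8, 22 and 37.0 in CM control. In control hearts edgeR's quasi-likelihood test called 8 of the 9 tested markers higher in NonCM, where 28% of all tested genes were called higher. The median log2 difference, NonCM minus CM, was 1.69 over the 9 and -0.0031 over all 12870 genes tested. Krt8 had too few reads to enter that test.

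Aldh1a2, which makes retinoic acid from retinaldehyde, had the largest difference between fractions in control hearts, with a log2 value of 2.28 ± 0.25 (SE; edgeR adjusted p = 5.9e-06). Msln, the surface glycoprotein mesothelin, followed at 2.03 ± 0.27 (edgeR adjusted p = 2.83e-05). The others called were Lrrn4 (1.92), Upk3b (1.87), Upk1b (1.69), Krt19 (1.59), Tbx18 (1.51) and Krt18 (1.25). Krt18 rested on few reads, 40 over the 3 NonCM control libraries and 13 over the 3 CM control libraries. Its edgeR adjusted p of 0.0370 went to between 0.0833 and 0.189 when NonCM control replicate 2 or 3, or CM control replicate 2 or 3, was left out.

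Wt1, a zinc finger factor of the epicardium, differed least between fractions. It averaged 12.4 ± 2.64 RPM in NonCM control and 7.33 ± 0.71 in CM control (SD, n = 3 each). Its log2 difference of 0.41 ± 0.18 did not pass (edgeR adjusted p = 0.0619), and passed at 0.60 without NonCM control replicate 2 (edgeR adjusted p = 0.0143). In Wls fl/fl hearts Wt1 averaged 16.2 ± 0.91 RPM in NonCM and 6.58 ± 0.74 in CM, a ratio of 2.46. The ratio in control hearts was 1.69, while the other 9 markers had ratios of 2.75 to 6.34 there. Relative to Msln in the same library, Wt1 reads stood at 0.374, 0.418 and 0.373 in NonCM Wls fl/fl and 0.378, 0.528 and 0.435 in NonCM control. The same ratio was 1.81, 1.34 and 1.24 in CM Wls fl/fl and 1.48, 1.89 and 1.13 in CM control, so the fractions did not overlap. Wt1 has also been described in blood vessel cells of injured mouse hearts. The 10 endothelial markers summed to 1977 to 2069 RPM in NonCM Wls fl/fl, 2147 to 2270 in NonCM control, 1500 to 1697 in CM Wls fl/fl and 1569 to 1778 in CM control, and their part in the Wt1 values was not tested.

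**Figure D1:**
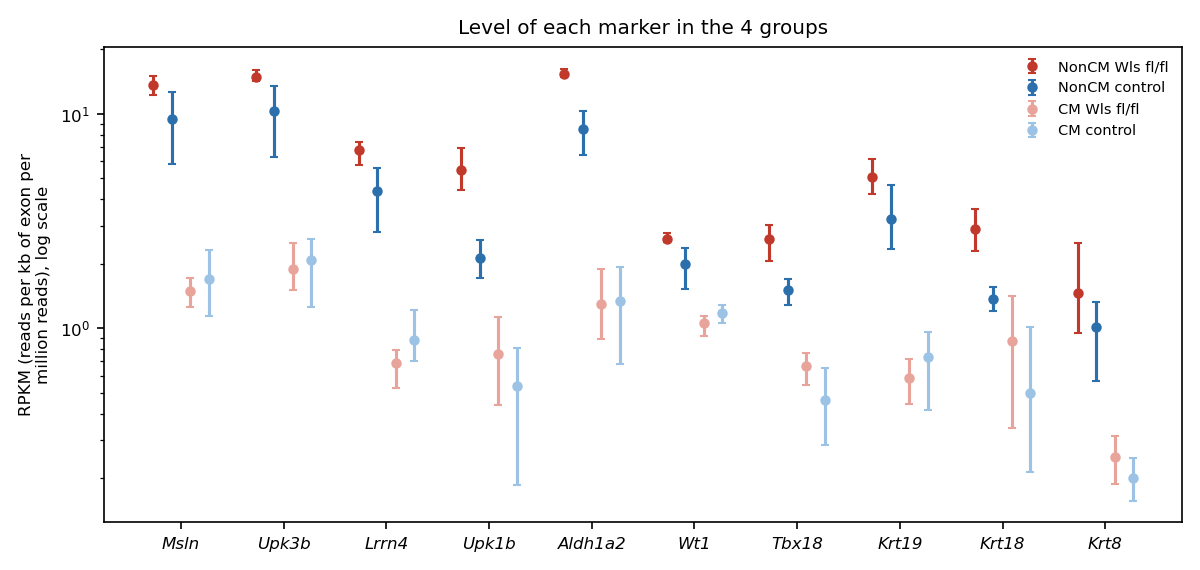
Level of each marker in the 4 groups, in RPKM on a log axis. Points are means of 3 libraries and bars run from the lowest to the highest library. The NonCM groups lie above the CM groups for all 10 genes, and for Wt1 the gap is the smallest.

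Per kilobase of exon, the level in NonCM Wls fl/fl was highest for Aldh1a2 at 15.4 ± 0.76, then Upk3b at 14.9 ± 1.02 and Msln at 13.6 ± 1.37 RPKM, which is RPM per kilobase of exon (SD, n = 3 each). Library ranges of these 3 overlapped, so their order is not resolved. Lrrn4, a membrane protein with leucine-rich repeats, came next at 6.74 ± 0.85 and was apart from Msln. Upk1b and Krt19 followed, each with a range that overlapped the one before, then Krt18, Tbx18 and Wt1, which overlapped, and Krt8 was lowest at 1.46 ± 0.89. In NonCM control the order began with Upk3b, Msln and Aldh1a2, whose ranges overlapped, at 10.3 ± 3.66, 9.42 ± 3.41 and 8.52 ± 1.96. Lrrn4 was apart from Aldh1a2 at 4.39 ± 1.41, and each later neighbour overlapped the one before it, down to Krt8 at 1.02 ± 0.40. In both CM groups Upk3b had the highest mean, at 1.90 ± 0.53 in Wls fl/fl and 2.08 ± 0.72 in control, with a range that overlapped that of Msln, and Krt8 was lowest, at 0.251 ± 0.063 in Wls fl/fl and 0.201 ± 0.045 in control.

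In the NonCM fraction all 10 markers had higher means in Wls fl/fl than in control, and 2 of them, Aldh1a2 and Upk1b, passed limma's test. Over all 13271 genes tested, limma called 4.51% in either direction and 2.47% as higher in Wls fl/fl. For 7 of the 10, every Wls fl/fl library stood above every control library, which was so for 13.9% of all tested genes. The median log2 change was 0.64 over the 10 and 0.02 over all genes, of which 53.2% were positive. Changes from limma are on the log2(value + 1) scale, which understates those of low genes. In bulk RNA, more cells of a type and more RNA per cell cannot be told apart.

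Aldh1a2 had normalized counts of 240, 220 and 217 in NonCM Wls fl/fl, against 150, 99.1 and 135 in NonCM control. The groups were apart, and the log2 change was 0.83 ± 0.14 (SE; limma adjusted p = 0.0169). Upk1b, a tetraspanin of urothelial and mesothelial membranes, had 94.7, 59.9 and 67.3 in NonCM Wls fl/fl, against 27.7, 24.4 and 36.2 in NonCM control. Its groups were also apart, and the log2 change of 1.29 ± 0.22 was the largest of the 10 (limma adjusted p = 0.0169). The first control value of Upk1b stands for 5 reads and that of Aldh1a2 for 27.

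Both calls depended on single libraries. Without Wls fl/fl replicate 1, 2 or 3, the limma adjusted p was 0.0662, 0.0881 and 0.0991 for Aldh1a2, and 0.0623, 0.0592 and 0.0991 for Upk1b. Without control replicate 3 it was 0.0575 for Aldh1a2 and 0.0379 for Upk1b. The sizes moved less, between 0.66 and 0.96 for Aldh1a2 and between 1.10 and 1.45 for Upk1b over the 6 libraries left out in turn. Over all genes, limma called 328 higher with every library, and 164, 83 and 67 without Wls fl/fl replicate 1, 2 or 3. It called 100 without control replicate 3, and 881 and 414 without control replicate 1 or 2. The loss of calls was thus not particular to Aldh1a2 and Upk1b. Without replicate 3 of both genotypes limma called none of the 10 and 0% of all genes. In that limma fit 3 markers had an unadjusted p under 0.05, as did 1242 of the 13278 genes tested. On the same libraries edgeR called Aldh1a2 (adjusted p = 0.0351), while Upk1b missed (edgeR adjusted p = 0.0546), and 0.225% of all genes were called higher.

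The epicardial transcription factors had smaller or less certain differences. Tbx18, a T-box factor, had normalized counts of 84.6, 92.5 and 62.8 in NonCM Wls fl/fl, against 38.8, 49.6 and 53.6 in NonCM control. The groups were apart, and the log2 change was 0.74 ± 0.19 (limma adjusted p = 0.0636). Wt1 had 113, 102 and 100 in NonCM Wls fl/fl, against 94.2, 64.8 and 86.9 in NonCM control. These groups were apart by a narrow margin, and the log2 change was 0.37 ± 0.15 (limma adjusted p = 0.230).

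Among the other membrane proteins, Upk3b, a uroplakin found in mesothelium, had normalized counts of 327, 367 and 329 in NonCM Wls fl/fl, against 305, 151 and 262 in NonCM control. The log2 change was 0.57 ± 0.22 (limma adjusted p = 0.188), with no overlap. Lrrn4 had 179, 139 and 169 in NonCM Wls fl/fl, against 133, 71.7 and 119 in NonCM control, a log2 change of 0.63 ± 0.21 with no overlap (limma adjusted p = 0.145). Msln had 301, 244 and 268 in NonCM Wls fl/fl, against 249, 123 and 200 in NonCM control. Its groups overlapped, since control replicate 1 stood above Wls fl/fl replicate 2, and the log2 change was 0.56 ± 0.22 (limma adjusted p = 0.202).

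The keratins had the fewest reads of the markers over the 6 NonCM libraries together. Krt18, the type I partner of Krt8 in simple epithelia, had normalized counts of 33.7, 21.3 and 26.2 in NonCM Wls fl/fl, against 11.1, 15.3 and 13 in NonCM control. The groups were apart, with a log2 change of 0.98 ± 0.28 (limma adjusted p = 0.0852). Krt19, another type I keratin, had 74.4, 50.6 and 58.3 in NonCM Wls fl/fl, against 55.4, 29.7 and 33.3 in NonCM control, and the groups overlapped (0.65 ± 0.25, limma adjusted p = 0.196). Krt8 had 31.8, 12 and 12 in NonCM Wls fl/fl, against 16.6, 7.63 and 15.2 in NonCM control. Only Wls fl/fl replicate 1 exceeded the controls, and the change was 0.39 ± 0.45 (limma adjusted p = 0.693). Krt8 and Krt18 are neighbours on chromosome 15 of mm10, at 101996698 to 102004482 on the minus strand and 102028180 to 102032027 on the plus strand.

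**Figure D2:**
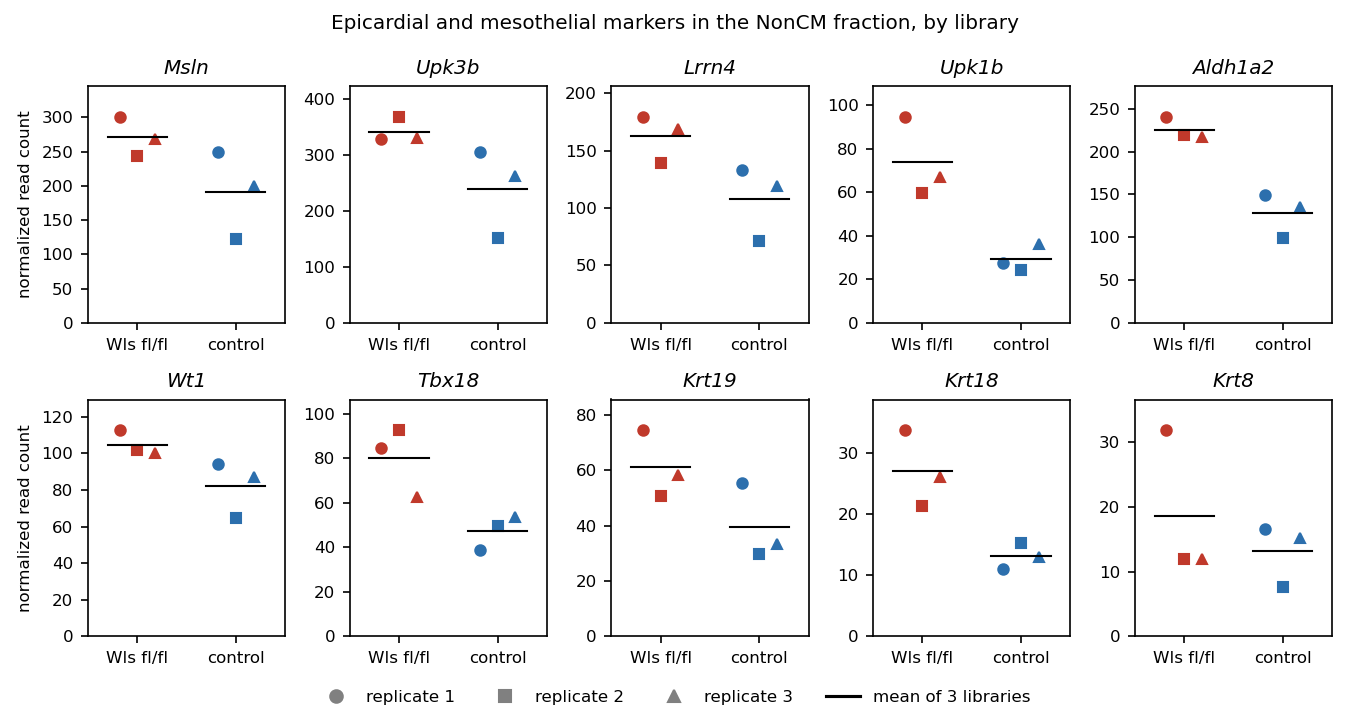
Normalized read counts of the 10 markers in each NonCM library, with Wls fl/fl left of control in each panel. Symbols give the replicate and lines the mean of 3 libraries. Control replicate 2 is the lowest control for 8 of the 10 genes, and the groups overlap for Msln, Krt19 and Krt8.

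The choice of test changed how many markers passed. On the recovered reads edgeR called 9 of the 10 higher in Wls fl/fl, all but Krt8, where it called 5.59% of all genes higher. The edgeR adjusted p ranged from 0.000111 for Aldh1a2 to 0.0484 for Wt1 among the 9. In the authors' deposited table, 4 of the 8 markers with an adjusted p were under 0.05: Aldh1a2 at 1.7e-05, Upk1b at 0.00127, Msln at 0.0238 and Lrrn4 at 0.0273. Of all genes with an adjusted p in the authors' deposited table, 3.36% were called higher. Limma without the shallow control replicate 1 also called 9, all but Krt8, and its calls of higher genes rose to 6.63% of the whole table.

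NonCM control replicate 2 was low for several markers at once. Its normalized count was 0.495 times that of control replicate 1 for Upk3b (95% exact binomial interval 0.366 to 0.681), 0.492 times for Msln (0.352 to 0.701) and 0.539 times for Lrrn4 (0.341 to 0.882). For Tbx18 the ratio was 1.28 (0.586 to 3.30) and for Krt18 1.38 (0.334 to 12.1). These intervals cover counting error only and compare libraries, not conditions. Without control replicate 2 the log2 change, Wls fl/fl minus control, was 0.27 for Upk3b, 0.27 for Msln and 0.36 for Lrrn4, against 1.17 for Upk1b, 1.08 for Krt18, 0.78 for Tbx18 and 0.66 for Aldh1a2. Wt1 stood at 0.21, Krt19 at 0.48 and Krt8 at 0.06. Limma then called the same pair, with an adjusted p of 0.0098 for Aldh1a2 and 0.0258 for Upk1b, and 3.11% of all genes as higher. The edgeR test without it called 4, adding Upk3b (adjusted p = 0.0369) and Msln (adjusted p = 0.0492), and 4.02% of all genes as higher. In CM, control replicate 2 was also the lowest control for 7 of the 10 markers.

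In the CM fraction none of the markers passed. Limma tested 6 of the 10, since Upk1b, Krt8, Krt18 and Krt19 had mean normalized counts under 10, and called 0, with 0 at an unadjusted p under 0.05. It called 0.0921% of all 11944 genes, of which 1044 had an unadjusted p under 0.05. The edgeR, limma-voom and DESeq2 tests also called 0 markers. No marker had every Wls fl/fl library above every control library, which held for 7.97% of all genes. Tbx18 had the largest log2 change, 0.56 ± 0.31 (limma adjusted p = 0.645), with normalized counts of 16.4, 22.9 and 20.7 in CM Wls fl/fl and 13.3, 8.64 and 19.5 in CM control. The other 5 had changes of -0.31 to -0.01. Without CM control replicate 2 these 5 had limma changes of -0.42 (Lrrn4) to -0.22 (Wt1), and Tbx18 stood at 0.29. Limma then called 0 markers and 17 of 11938 genes. Wt1 had 44.6, 44.8 and 36.2 in CM Wls fl/fl and 47.0, 42.0 and 50.6 in CM control, and these overlapped. Aldh1a2 had 12.9, 15.6 and 27.2 in CM Wls fl/fl and 27.6, 9.87 and 20.4 in CM control, a change of -0.01 ± 0.37 (limma adjusted p = 0.997). At this depth the 4 untested markers had between 2 and 23 reads in any CM library.

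**Figure D3:**
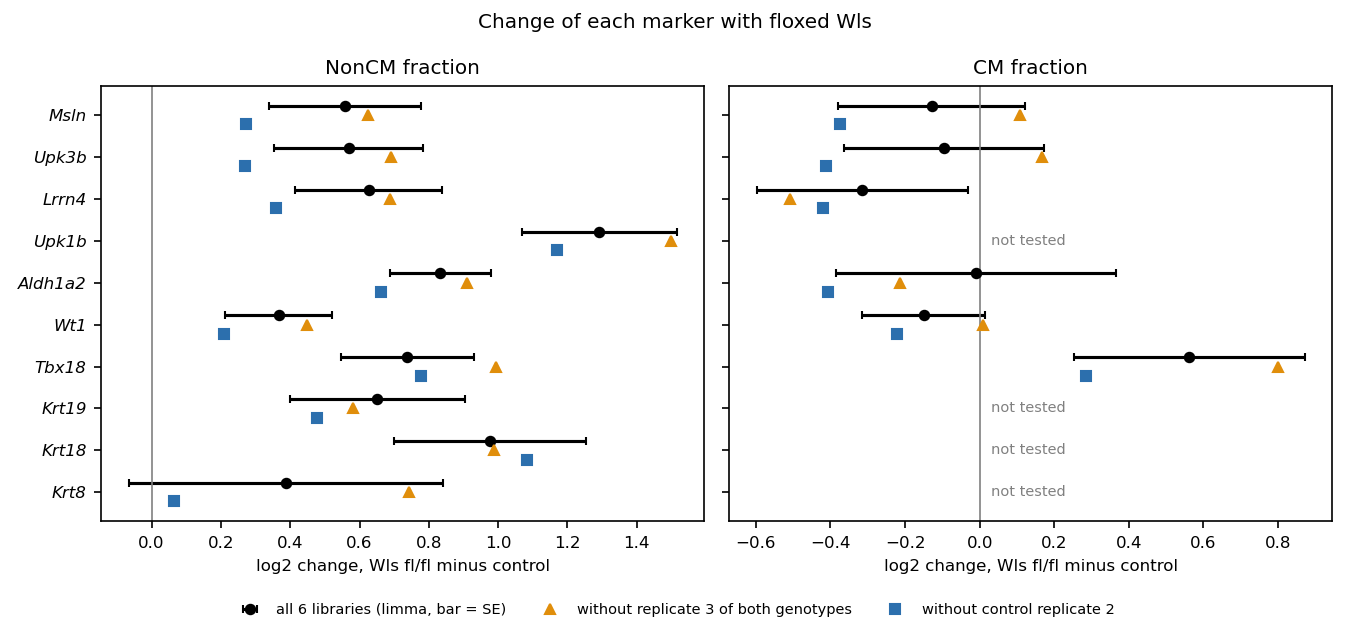
Log2 change of each marker, Wls fl/fl minus control, in NonCM (left) and CM (right). Black points are limma estimates from 6 libraries with SE bars, triangles leave out replicate 3 of both genotypes, and squares leave out control replicate 2. All NonCM points lie above 0, and without control replicate 2 those of all genes but Tbx18 and Krt18 lie nearer to 0.

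Whether the genotype difference itself differed between fractions was tested in one edgeR fit of all 12 libraries. The series design states that both fractions came from each mouse, but the labels do not pair them. This fit and the fit between fractions in control hearts therefore treated NonCM and CM libraries as independent, and their p-values ignore the pairing. None of the 10 markers passed, while 1.41% of all genes were called. An edgeR unadjusted p under 0.05 was found for 6 of the 10 and for 1893 of the 13993 genes tested. Over all genes, 47.4% of differences, NonCM change minus CM change, were positive. All 10 differences of the markers were positive. They ranged from 0.15 ± 0.36 for Tbx18 (edgeR adjusted p = 0.921) to 1.17 ± 0.48 for Krt19 (edgeR adjusted p = 0.268), and the smallest edgeR adjusted p was 0.181, for Wt1 at 0.62 ± 0.22. Without a filter on low counts edgeR called Upk3b (adjusted p = 0.0113) and Msln (adjusted p = 0.0333), and 400 of 30560 genes in either direction. With limma-voom, 0 of the 10 markers and 326 of 13993 genes were called.

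The markers were also set against each other within a library. Upk3b reads per Msln read were 1.09, 1.51 and 1.23 in NonCM Wls fl/fl and 1.22, 1.23 and 1.31 in NonCM control. Lrrn4 reads per Msln read were 0.596, 0.571 and 0.630 in NonCM Wls fl/fl and 0.533, 0.584 and 0.594 in NonCM control. Both ratios overlapped between genotypes, although the Msln level itself varied from 123 to 301 normalized counts over these libraries. Upk1b reads per Upk3b read were 0.289, 0.163 and 0.205 in NonCM Wls fl/fl and 0.0909, 0.162 and 0.138 in NonCM control, which were apart by a narrow margin. Aldh1a2 reads per Msln read were 0.799, 0.902 and 0.808 in NonCM Wls fl/fl and 0.600, 0.807 and 0.674 in NonCM control, and these overlapped. Tbx18 reads per Msln read were 0.281, 0.380 and 0.234 in NonCM Wls fl/fl and 0.156, 0.404 and 0.268 in NonCM control, and these overlapped. In CM the same ratio was 0.667, 0.688 and 0.711 in Wls fl/fl and 0.419, 0.389 and 0.435 in control, which were apart, on 68 reads of Tbx18 over the 3 Wls fl/fl libraries and 40 over the 3 control libraries. An exact permutation test of 3 against 3 cannot go below 0.1, so none was run on the ratios.

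**Figure D4:**
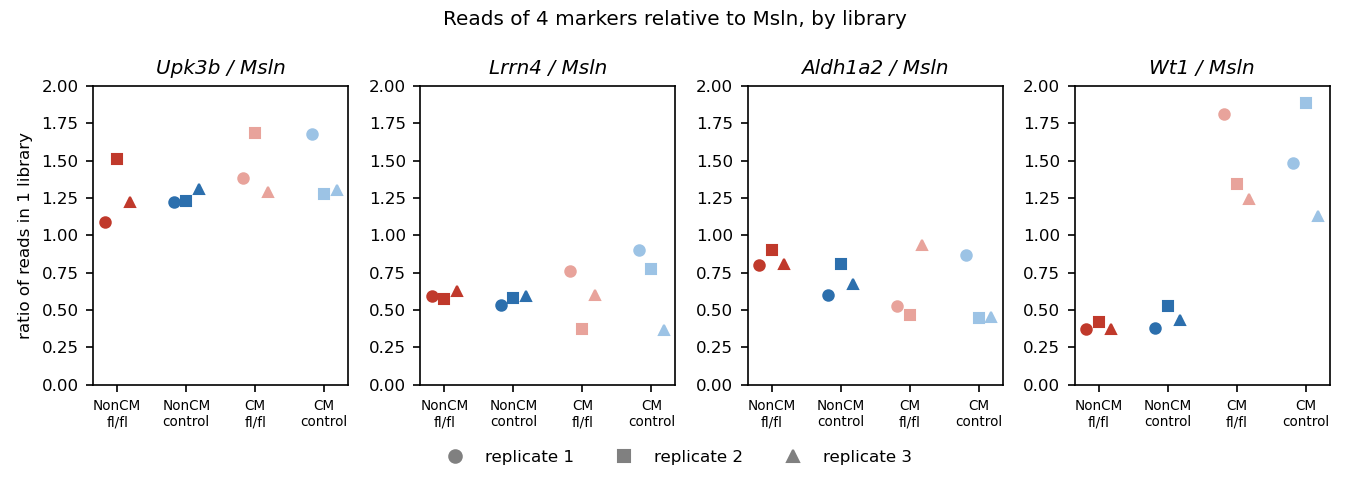
Reads of Upk3b, Lrrn4, Aldh1a2 and Wt1 divided by the reads of Msln in the same library, for the 4 groups. Symbols give the replicate. Wt1 lies between 0.373 and 0.528 in NonCM and between 1.13 and 1.89 in CM, while the genotypes overlap in every panel.

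Across the 12 libraries, on log2(RPM + 1), Upk3b and Msln were each the closest gene to the other among 13780 genes, with a Pearson r of 0.993. Next came Arf4 and Dchs1 for Upk3b, and Arf4 and Rrbp1 for Msln. The libraries share the split into fractions, so high values are common and carry no test. The closest genes to Aldh1a2 were Ret, Tmsb10 and Pdia3, and to Upk1b Eif2ak2, Sec24d and Tusc3. Those closest to Wt1 were Pdia6, Crb2 and Ints8, with Msln ranked 8 and Upk3b ranked 12. Those closest to Tbx18 were 4933431E20Rik, Lgals9 and Polk, and to Krt19 Msn, Pdia3 and AI662270. Those closest to Lrrn4 were Stt3a, Foxp4 and Kank4, to Krt18 Mcfd2, Brox and Plin2, and to Krt8 Dmkn, Pura and Lrp2.

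Of 18 other mesothelial and epicardial genes, 15 were tested in NonCM and limma called 3 higher in Wls fl/fl. Their median log2 change was 0.27. Over all genes tested in NonCM, limma called 2.47% higher and 4.51% in either direction, with a median log2 change of 0.02. Prg4, the lubricating glycoprotein lubricin, averaged 116 ± 20.0 normalized counts in NonCM Wls fl/fl and 37.4 ± 10.8 in NonCM control (SD, n = 3 each; log2 change 1.63, limma adjusted p = 0.00505). Sema3d, a secreted guidance factor, averaged 247 ± 7.36 in NonCM Wls fl/fl and 154 ± 4.90 in NonCM control (0.68, limma adjusted p = 0.00293). Complement C3 changed by 0.69 (limma adjusted p = 0.0165). Of 15 epicardial and transition factors, Zeb2 (0.34) and Tcf21 (0.39) rose and Hand2 fell by 0.43 on the log2 scale. None of 13 tested retinoic acid pathway genes besides Aldh1a2 passed, nor did any of 4 tested epithelial and keratin genes, and no other uroplakin was abundant enough to test.

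Some markers of other cell types also differed with the genotype in NonCM. Over all 13271 genes tested there, limma called 328 higher and 270 lower in Wls fl/fl. Limma called 7 of 10 fibroblast markers higher, and their sum was 17540 to 18539 RPM in NonCM Wls fl/fl against 12535 to 13121 in NonCM control. It called 8 of 10 cardiomyocyte markers lower, with sums of 49112 to 51086 in NonCM Wls fl/fl against 58171 to 63052 in NonCM control. The same 10 summed to 83783 to 93008 RPM in CM Wls fl/fl and 86349 to 87437 in CM control. The NonCM libraries thus held much cardiomyocyte RNA. Macrophage markers had 2 of 10 higher, Lyz2 and Cd68, with sums of 1719 to 1807 in NonCM Wls fl/fl against 1201 to 1466 in NonCM control. Endothelial markers had 1 of 10 lower (Emcn), and smooth muscle and pericyte markers 1 of 9 tested lower (Abcc9). Lung epithelium has the same 3 keratins, and mesothelium also covers the lung. Of 7 lung epithelial genes only Scgb1a1, an airway secretory protein, was tested. It averaged 33.3 ± 10.4 normalized counts in NonCM Wls fl/fl and 5.44 ± 4.91 in NonCM control (2.63, limma adjusted p = 0.0262). The 7 summed to 6.58 to 8.75 RPM in NonCM Wls fl/fl and 1.23 to 4.31 in NonCM control. The other 6 had mean NonCM normalized counts of 7.60 (Ager), 2.65 (Scgb3a2), 1.34 (Sftpc), 1.14 (Sftpa1), 0.23 (Sftpb) and 0 (Sftpd). The part of any of these cell types in the marker values was not tested.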

How the data were processed

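RNA was sequenced from 12 libraries in 4 groups of 3, by labelled genotype and fraction. Per the submitters' processing notes, STAR, DESeq2 and the build mm10 were used. Not given in the sources used here are versions, annotation, counting tool, strand and trimming. Each fraction has 1 deposited table with a signal per gene and library, the read count that the authors divided by a size factor, and 100% of values were whole reads within 0.01 reads. The tables also hold the authors' log2 fold changes, test score (the change over its standard error) and p-values from DESeq2, per the file headers.

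Within a fraction, limma 3.58.1 in R 4.3.3 (trend) tested log2(value + 1) of genes with a mean of 10 or more. Recovered reads were tested with edgeR 4.0.16 (quasi-likelihood, TMM) for fractions and for the interaction. Calls used a Benjamini-Hochberg adjusted p of 0.05 over all genes. Reads per kilobase used exon lengths of GENCODE M21. Without known strand, Tbx18, Aldh1a2 and Krt8 cannot be separated from a gene that overlaps each on the other strand. The code was tested on simulated data. All 10 genes were named, and at most 4 called genes per context list by smallest p, and the 3 closest genes to each of the 10 by correlation. The genes and lists were chosen with earlier results of these data known.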

Additional observations from a re-analysis of the deposited data

How the results depend on the processing

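For NonCM, Wls fl/fl minus control, the 2 markers called by limma became 9 with edgeR, 9 with limma-voom and 4 with DESeq2 1.42.0. They became 4 at an adjusted p of 0.1 and 0 with the summed cardiomyocyte markers as a covariate. Over all genes, limma called 328 higher, edgeR 789, limma-voom 759, DESeq2 335, and limma at 0.1 called 603. With the covariate limma called 0 of all 13271 genes. That covariate does not overlap between the genotypes, and its SEs were larger: Aldh1a2 changed by 1.76 ± 0.89 and Upk1b by 2.89 ± 1.37, with 9 of 10 markers positive, so the lost calls say little about the markers. Leaving out 1 library gave 0 to 9, with 67 to 881 of all genes called higher, and leaving out replicate 3 of both genotypes 0. Chosen after seeing the data, edgeR without replicate 3 of both genotypes called 1 and edgeR without control replicate 2 called 4. The count stayed at 2 with pseudocounts of 0.5 and 5, with no filter or a mean of 50, and with TMM or upper-quartile scaling. The interaction count of 0 became 2 without a filter, where 400 of 30560 genes were called. It stayed at 0 with any 1 library left out. Those fits called 0 to 296 of all genes in either direction, so this count says little about the markers. The CM count stayed at 0 under each alternative that gave a value, where 2 to 41 of all genes were called. The count between fractions was 7 to 9 of the 8 to 10 markers tested, with 2549 to 4214 of all genes called higher in NonCM.

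Signs turned in few cases, none of them called. In NonCM these were Tbx18 at -0.16 with the covariate and Krt8, which ranged from -0.0591 to 0.61 with a library left out. In CM, Aldh1a2 was 0.0083 with edgeR, 0.051 with limma-voom and 0.0095 with the covariate, and -0.41 to 0.29 with a library left out. Upk3b in CM was -0.41 to 0.10 with a library left out, 0.17 without replicate 3 of both genotypes and 0.13 with edgeR then. Msln in CM was -0.37 to 0.12 with a library left out, 0.11 without replicate 3 of both genotypes and 0.094 with edgeR then, and Wt1 in CM was 0.0099 without replicate 3. In the interaction, Tbx18 ranged from -0.20 to 0.36, Krt8 from -0.38 to 0.69 and Krt18 from -0.85 to 0.61 with a library left out. The causes were not tested.

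A mean of 50 left no CM marker to test, and DESeq2 gave the 10 markers no adjusted p for the interaction. In that DESeq2 fit 3 markers had an unadjusted p under 0.05, as did 1101 of 30557 genes. No paired analysis was possible because the groups share no library number in the labels, which do not say which libraries share a heart. Low read numbers limit Krt8, Krt18 and every CM value.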
